A study of Arabidopsis thaliana with 6 samples.

Results

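The transcripts described here are those that the plastid genome encodes for the photosynthetic complexes of the thylakoid, for the large subunit of Rubisco, for the chloroplast NADH dehydrogenase-like complex (NDH) and for ccsA, a protein of cytochrome assembly. They were chosen as probe sets annotated to a plastid locus whose symbol starts with psa, psb, pet, atp, ndh or rbc, or is ccsA, which gave 44 of the 22810 probe sets of the Affymetrix ATH1 array, each with a locus of its own. They comprise 5 transcripts of photosystem I, 15 of photosystem II, 6 of the cytochrome b6f complex, 6 of the ATP synthase, 10 of NDH, rbcL and ccsA. The annotation table holds 45 gene names that meet the same description. The remaining one, ndhB, has 2 copies in the inverted repeat and 1 probe set annotated to both, which was left out of the counts because it carries 2 loci.

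RNA came from whole Arabidopsis thaliana plants grown on soil in a growth chamber and rinsed free of soil. The groups were 3 samples of an rli T-DNA insertion mutant and 3 wild-type (WT) samples, each on its own array. RLI (ABCE) proteins bind ATP, help to recycle ribosomes and are named for inhibiting RNase L in mammals, and the series title links them to RNA stability. The labels give rli plants the developmental stage 1.14 and WT plants 3.20, with weeks as the unit. They do not settle whether these are ages or growth stage codes, and stage and genotype cannot be told apart. The source name Co-1 and 1 stock code are given for rli and WT alike. Neither the RLI gene that carries the insertion nor the number of plants in a sample is stated. Of the 3 RLI loci of the genome, 0 had a probe set named in the tables used here, so the genotype was not checked on its own transcript. The labels do not call the replicates separate plants, so the p-values rest on a spread between samples that may be technical.

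In the chloroplast, photosystem II splits water, the cytochrome b6f complex passes electrons on and pumps protons, photosystem I reduces ferredoxin, and the ATP synthase uses the proton gradient. NDH returns electrons from ferredoxin to the plastoquinone pool in cyclic flow around photosystem I. Each of these complexes is a mosaic of subunits from plastid and nuclear genes, and the plastid genes are transcribed mostly as long polycistronic units that are then cut into smaller RNAs. Plastid RNAs mostly lack stable poly(A) tails, and tails added to them promote their decay, whereas the labelling kit named in the labels primes on poly(A). The array therefore reads the part of each transcript that was primed and not its total amount. In whole plants, fewer green cells, fewer plastids and less RNA per plastid cannot be told apart.

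The arrays differed from each other in ways that go along with these transcripts. WT replicate 3 correlated at 0.76 with each of the other WT arrays over all probe sets, whereas the other WT arrays correlated at 0.92 with each other and the rli arrays at 0.87. The 18 probe sets of the hybridisation controls, bacterial and phage transcripts added in known amounts before hybridisation, had a mean log2 intensity of 9.80, 9.38 and 9.66 on rli replicates 1 to 3, against 8.96, 9.37 and 10.32 on WT replicates 1 to 3. The 25S ribosomal RNA probe set read 1319, 1048 and 863 on the rli arrays, against 285.2, 344.3 and 1927 on the WT arrays. The mean log2 ratio of 3′ to 5′ signal over 6 control pairs was 2.65, 2.39 and 2.68 on the rli arrays, against 2.11, 2.40 and 2.83 on the WT arrays. WT replicate 3 had the highest of each of these readings, WT replicate 1 the lowest, and the rli values lay between. The median over the 44 transcripts, each centred on its own mean, was 0.14, -0.29 and 0.40 on the rli arrays, against -0.76, -0.99 and 1.47 on the WT arrays, again with WT replicate 3 highest. The part of the technical readings in the results below was not tested. Results are also given without WT replicate 3, a choice made after these values were seen.

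**Figure D1:**
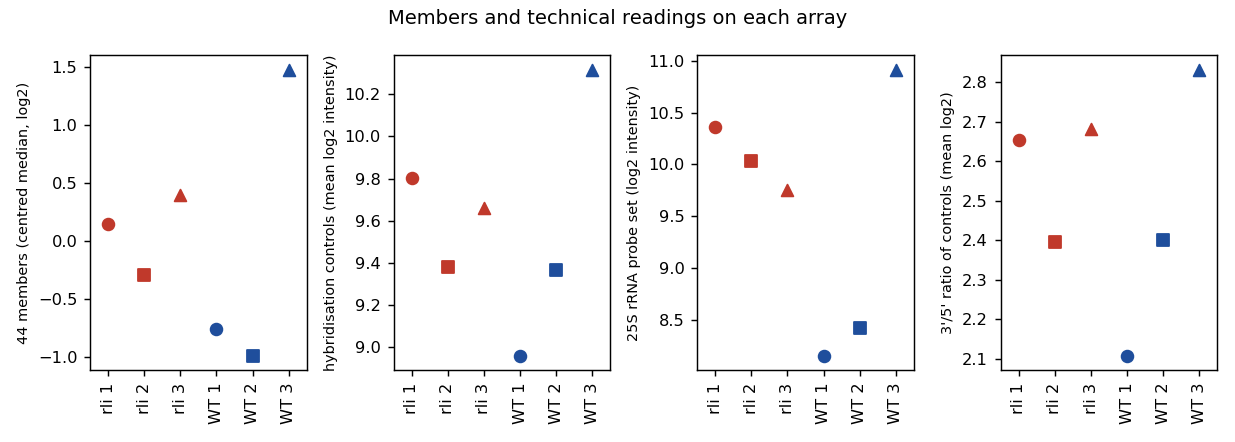
The 6 arrays (rli in red, WT in blue) run along each x axis, and the y axes give the median of the 44 transcripts after centring each on its own mean (log2), the mean log2 intensity of 18 hybridisation control probe sets, the log2 intensity of the 25S ribosomal RNA probe set, and the mean log2 ratio of 3′ to 5′ control signal. WT replicate 3 is highest in all 4 panels, at 1.47, 10.32, 10.91 and 2.83.

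Values below are log2 MAS5 intensities, and differences are rli minus WT ± the standard error of limma, with 3 arrays per group (3 rli and 2 WT arrays without WT replicate 3). Adjusted p-values are limma's after the Benjamini-Hochberg procedure over the 13648 probe sets tested, with a threshold of 0.05. All 44 transcripts lay above the filter on dim probe sets. With all arrays, 0 of the 44 changed between rli and WT, against 6.8% of all tested probe sets (4.27% rose and 2.53% fell). Of the 44, 0 had an unadjusted p below 0.05, and the lowest adjusted p was 0.32. The mean was higher in rli for 30 transcripts and lower for 14. Differences ran from -0.59 to 1.41 with a median of 0.17, beside a median of 0.038 over all tested probe sets.

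The rli arrays took a middle place for most of the 44 transcripts. In 36 of them all rli values lay above WT replicates 1 and 2 and below WT replicate 3, an order found in 5.03% of all tested probe sets and described after the values were seen. WT replicate 3 had the highest value for 42 transcripts, against 26.2% of all tested probe sets. The exceptions were psbM, highest on rli replicate 3, and atpB, highest on rli replicate 2. The 8 transcripts outside the order were these 2, psaJ, petA, petG, petL, ndhC and ccsA. Among the rli arrays, replicate 2 was lowest for 37 and replicate 3 highest for 38 of the 44.

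With all arrays the spread was wider within WT than within rli, and this rests on WT replicate 3. From the lowest to the highest array the 44 transcripts spanned a median of 0.56 (0.19 to 2.12) in rli, against 2.63 (0.31 to 5.96) in WT. The WT span was the wider for all 44, while it was the wider for 63.8% of all tested probe sets, whose median spans were 0.47 in rli and 0.63 in WT. Spans without WT replicate 3 are not given here. Another measure was the median over the 44 transcripts, each centred on the arrays other than WT replicate 3. Its SD was 0.31 in rli (n = 3), against 0.13 in WT (n = 2). With all arrays the groups overlapped for all 44 transcripts, whereas 28.1% of all tested probe sets had groups that did not overlap.

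**Figure D2:**
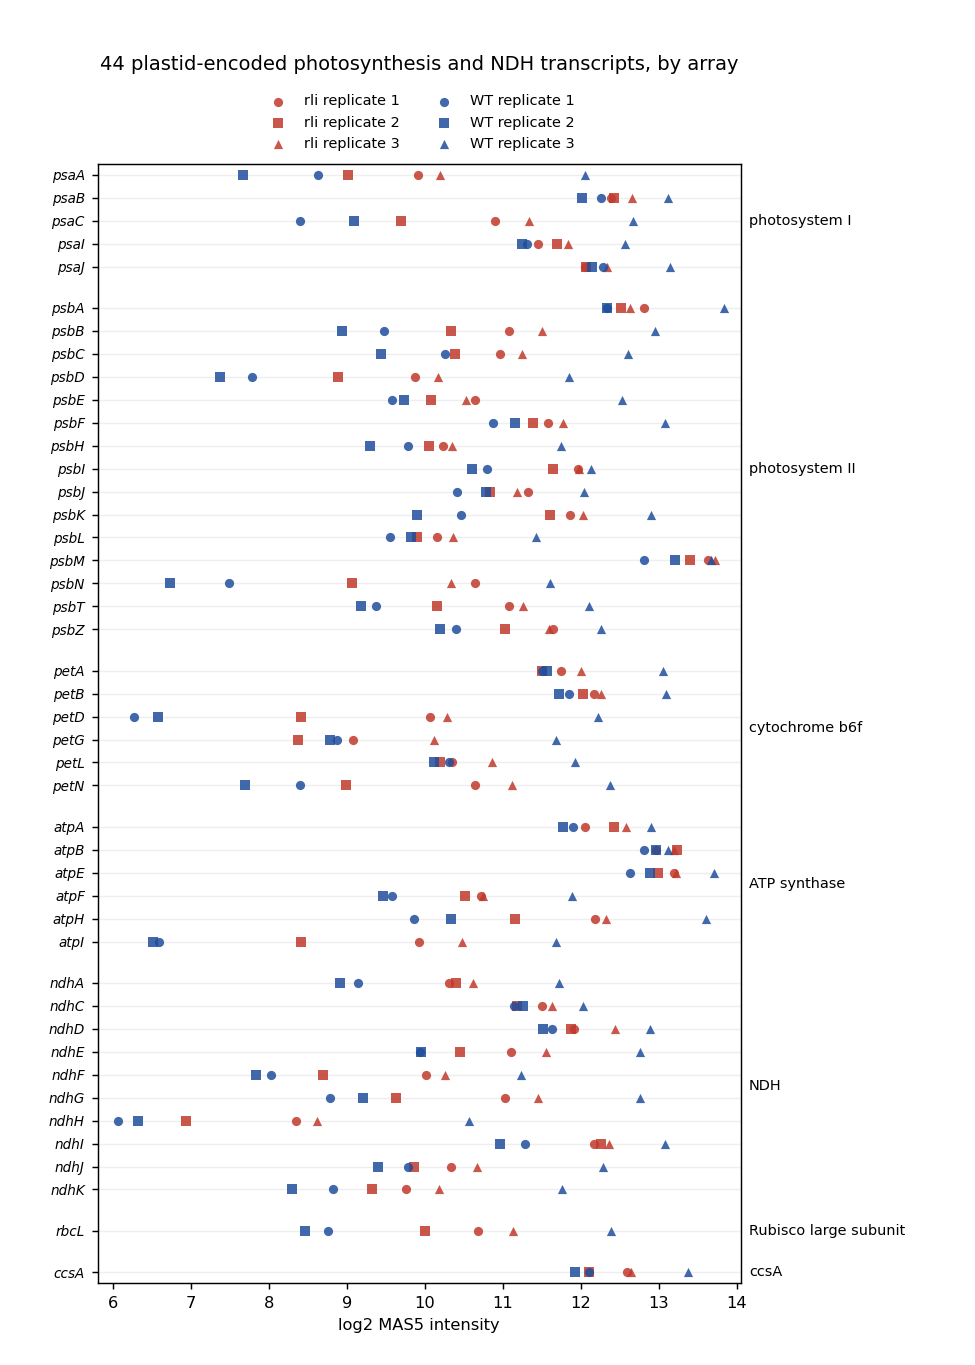
Each row is 1 of the 44 plastid transcripts, grouped by complex, and the x axis is its log2 MAS5 intensity on the 3 rli arrays (red) and the 3 WT arrays (blue). The blue triangle of WT replicate 3 lies at the right in 42 rows, the blue circle and square of WT replicates 1 and 2 at the left in most, and rli between them in 36.

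WT replicate 3 held the highest value for 42 of the 44 transcripts, so leaving it out raises their differences by construction. Without WT replicate 3, 26 of the 44 transcripts rose in rli and 0 fell, against 8.72% of all tested probe sets that rose and 6.56% that fell. The median difference was 1.05 (range -0.059 to 3.17), beside 0.012 over all tested probe sets, and 23 of the 26 rises were at least 2-fold. All rli values lay above both remaining WT values for 37 transcripts, against 24% of all tested probe sets. By complex, 2 of 5 transcripts of photosystem I rose, 11 of 15 of photosystem II, 2 of 6 of cytochrome b6f, 3 of 6 of the ATP synthase, 7 of 10 of NDH, and rbcL, while ccsA did not pass. When limma's array weights were used in place of leaving the array out, WT replicate 3 received the lowest weight, 0.19, and 24 transcripts rose, against 12.6% of all tested probe sets. Of these 24, 23 were among the 26. Leaving out any other single array gave no change past the threshold.

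Scaling each array on the hybridisation controls, an alternative chosen after seeing the data, lowered these counts. With that scaling and all arrays 0 of the 44 changed. Without WT replicate 3 it left 16 rises and 0 falls, against 3.89% of all tested probe sets that rose and 16.4% that fell, and all 16 were among the 26. In that setting the median over all tested probe sets was -0.44 and that over the 44 transcripts 0.60. The mean of 13 transcripts was then lower in rli. Limma took the variance there almost wholly from the intensity trend, so the calls do not rest on each transcript's own spread. The standard errors of petD and ndhI were 0.35 and 0.29, while their SDs across the rli arrays before this scaling were 1.03 and 0.094. The 16 comprised psaA, psaC, psbB, psbD, psbK, psbN, psbT, petD, petN, atpH, atpI, ndhA, ndhF, ndhG, ndhH and rbcL.

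**Figure D3:**
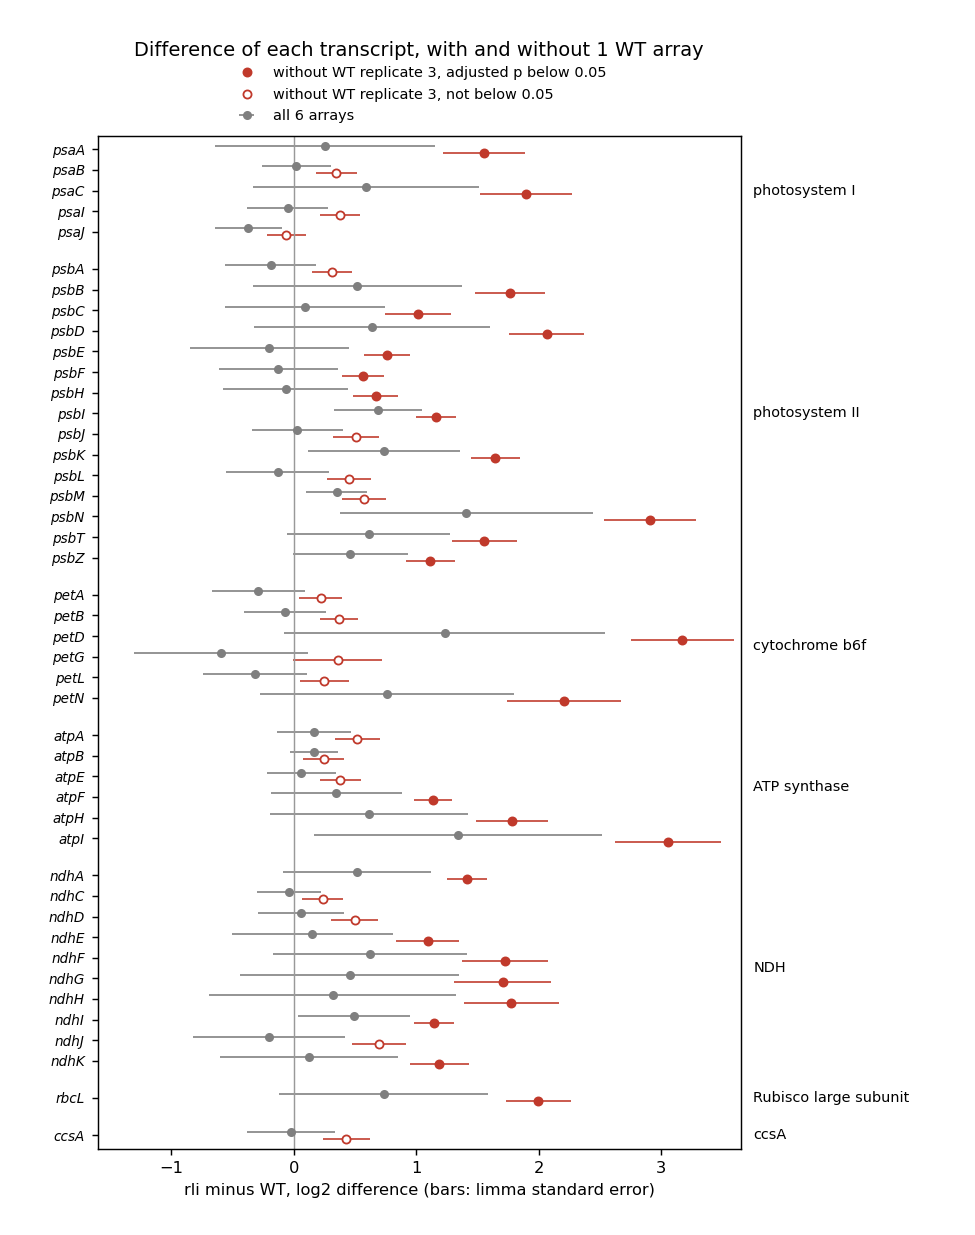
Each row is 1 transcript, and the x axis is the log2 difference rli minus WT with its limma standard error, from all 6 arrays (grey) and without WT replicate 3 (red, filled where the adjusted p was below 0.05). The grey values lie between -0.59 and 1.41 with 0 past the threshold, and the red ones between -0.059 and 3.17 with 26 past it.

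In photosystem I, psaA and psaB encode the paired core proteins that bind the reaction centre pigments, and psaC the stromal protein that carries iron-sulphur clusters. The core transcript psaA (ArthCp022) read 9.91, 9.01 and 10.19 on rli replicates 1 to 3, against 8.63, 7.67 and 12.05 on WT replicates 1 to 3. Its rli values lay above WT replicates 1 and 2 and well below WT replicate 3, with a difference of 0.25 ± 0.90 (adjusted p = 0.91). With that array left out psaA rose by 1.55 ± 0.33 (adjusted p = 0.0082). Its partner psaB (ArthCp021) read 12.38, 12.42 and 12.65 on rli replicates 1 to 3, against 12.26, 12.01 and 13.12 on WT replicates 1 to 3, in the same order over a far narrower span. The difference of psaB was 0.021 ± 0.28 (adjusted p = 0.98) and, without WT replicate 3, 0.35 ± 0.17 (adjusted p = 0.19). psaC (ArthCp075) read 10.89, 9.69 and 11.33 on rli replicates 1 to 3, against 8.39, 9.09 and 12.66 on WT replicates 1 to 3, with a difference of 0.59 ± 0.92 (adjusted p = 0.79), the highest of the complex. It rose by 1.90 ± 0.38 (adjusted p = 0.0055), or 3.72-fold, without WT replicate 3.

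The remaining photosystem I transcripts encode small subunits in the membrane. psaJ (ArthCp042) read 12.05, 12.06 and 12.33 on rli replicates 1 to 3, against 12.27, 12.14 and 13.13 on WT replicates 1 to 3, with the rli values mixed among WT replicates 1 and 2. Its difference was the lowest of the complex, -0.37 ± 0.27 (adjusted p = 0.50), and -0.059 ± 0.16 (adjusted p = 0.85) without WT replicate 3. The difference of psaI was -0.048 ± 0.33, and 0.38 ± 0.16 without that array.

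In photosystem II, psbA and psbD encode D1 and D2, the reaction centre proteins, and psbB and psbC the inner antenna proteins CP47 and CP43. D1 is damaged by light and replaced faster than the other subunits. psbA (ArthCp002) read 12.81, 12.51 and 12.62 on rli replicates 1 to 3, against 12.33, 12.33 and 13.84 on WT replicates 1 to 3. The rli values lay just above WT replicates 1 and 2, and the difference was -0.19 ± 0.37 (adjusted p = 0.83), or 0.31 ± 0.16 (adjusted p = 0.22) without WT replicate 3. psbD (ArthCp017) read 9.87, 8.89 and 10.16 on rli replicates 1 to 3, against 7.78, 7.37 and 11.84 on WT replicates 1 to 3, a far wider spread in both groups. Its difference was 0.64 ± 0.96 (adjusted p = 0.78), and without WT replicate 3 it rose by 2.07 ± 0.30 (adjusted p = 0.00084), 4.19-fold. D1 and D2 work as a pair, yet without that array the difference was 2.07 for the D2 transcript and 0.31 for the D1 transcript. The difference between these 2 values was not tested.

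The antenna transcripts read 11.07, 10.34 and 11.50 in rli, against 9.47, 8.94 and 12.94 in WT for psbB, and 10.96, 10.39 and 11.24 in rli, against 10.26, 9.43 and 12.60 in WT for psbC. Both were in the order found for most of the 44, and both rose without WT replicate 3, psbB by 1.77 ± 0.28 (adjusted p = 0.0015) and psbC by 1.02 ± 0.27 (adjusted p = 0.025). The psbC rise was lost when the arrays were scaled on the hybridisation controls as well.

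The psbE and psbF transcripts encode the subunits of cytochrome b559. psbE (ArthCp039) read 10.64, 10.08 and 10.53 on rli replicates 1 to 3, against 9.58, 9.73 and 12.53 on WT replicates 1 to 3, and its difference of -0.20 ± 0.65 (adjusted p = 0.91) was the lowest of photosystem II. The sign turned without WT replicate 3, where psbE rose by 0.76 ± 0.19 (adjusted p = 0.017) and psbF by 0.57 ± 0.17 (adjusted p = 0.046). With the hybridisation control scaling as well, neither passed, at 0.31 ± 0.33 for psbE and 0.11 ± 0.30 for psbF.

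Among the small proteins of photosystem II, psbN (ArthCp051) gave the highest difference of all 44. It encodes a protein that photosystem II assembly needs in tobacco and lies between psbT and psbH on the opposite strand. It read 10.64, 9.07 and 10.33 on rli replicates 1 to 3, against 7.48, 6.73 and 11.60 on WT replicates 1 to 3, with the rli values between the WT values and far from WT replicates 1 and 2. The difference was 1.41 ± 1.03 (adjusted p = 0.50), and without WT replicate 3 psbN rose by 2.91 ± 0.38 (adjusted p = 0.00037), 7.5-fold. Of the remaining small subunits, psbK rose without that array by 1.65 ± 0.20, psbT by 1.56 ± 0.27, psbI by 1.16 ± 0.17, psbZ by 1.12 ± 0.20 and psbH by 0.67 ± 0.18. psbI, with 11.96, 11.65 and 11.97 in rli, against 10.79, 10.60 and 12.13 in WT, had the smallest unadjusted p with all arrays and an adjusted p of 0.32. psbJ, psbL and psbM did not pass without WT replicate 3, at 0.51 ± 0.19, 0.45 ± 0.18 and 0.57 ± 0.18. psbM was among the brightest probe sets, with 13.63, 13.39 and 13.71 in rli, against 12.81, 13.20 and 13.67 in WT.

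In the cytochrome b6f complex, petA encodes cytochrome f, petB cytochrome b6 and petD subunit IV. Its transcripts gave unlike differences without WT replicate 3, and the differences between them were not tested. petD (ArthCp054) read 10.07, 8.41 and 10.28 on rli replicates 1 to 3, against 6.26, 6.57 and 12.22 on WT replicates 1 to 3, with the widest WT span of the 44, 5.96. Its difference was 1.23 ± 1.31 (adjusted p = 0.66), and without WT replicate 3 it rose by 3.17 ± 0.42 (adjusted p = 0.00043), 9-fold, the largest rise of the 44. petB (ArthCp053) read 12.16, 12.02 and 12.26 on rli replicates 1 to 3, against 11.84, 11.72 and 13.09 on WT replicates 1 to 3, a difference of -0.069 ± 0.33 (adjusted p = 0.94), or 0.37 ± 0.16 (adjusted p = 0.14) without that array. The genes of cytochrome b6 and subunit IV lie next to each other and are transcribed together.

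The petG, petL and petN transcripts encode small subunits. petG (ArthCp041) read 9.07, 8.37 and 10.12 on rli replicates 1 to 3, against 8.88, 8.78 and 11.67 on WT replicates 1 to 3, with rli replicate 2 the lowest of the 6 arrays, and its difference of -0.59 ± 0.71 (adjusted p = 0.71) was the lowest of the 44. It stood at 0.36 ± 0.36 (adjusted p = 0.57) without WT replicate 3. petL read 10.34, 10.19 and 10.85 in rli, against 10.31, 10.11 and 11.92 in WT, with a difference of -0.32 ± 0.42, or 0.25 ± 0.20 without that array. petA read 11.75, 11.50 and 12.00 in rli, against 11.49, 11.56 and 13.05 in WT, with a difference of -0.29 ± 0.38, or 0.22 ± 0.18 without that array. petN alone among these went with petD. It read 10.64, 8.99 and 11.11 in rli, against 8.39, 7.69 and 12.38 in WT, and rose without WT replicate 3 by 2.20 ± 0.46 (adjusted p = 0.0077).

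The ATP synthase transcripts encode the catalytic head (atpA, atpB and atpE for the alpha, beta and epsilon subunits) and the membrane part (atpF, atpH and atpI, with atpH for the rotor ring). atpB (ArthCp029) read 12.96, 13.23 and 13.19 on rli replicates 1 to 3, against 12.81, 12.96 and 13.12 on WT replicates 1 to 3, the narrowest WT span of the 44, 0.31, with a difference of 0.17 ± 0.19 (adjusted p = 0.70), or 0.24 ± 0.16 (adjusted p = 0.36) without WT replicate 3. atpE (ArthCp028) read 13.20, 12.99 and 13.22 on rli replicates 1 to 3, against 12.62, 12.89 and 13.70 on WT replicates 1 to 3, with a difference of 0.064 ± 0.28 (adjusted p = 0.93), the lowest of the complex. Without that array the differences of atpE and atpA were 0.38 ± 0.17 and 0.52 ± 0.18, and neither passed.

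The membrane part moved over a wider range. atpI (ArthCp010) read 9.92, 8.41 and 10.48 on rli replicates 1 to 3, against 6.59, 6.51 and 11.67 on WT replicates 1 to 3, and its rli values again lay between the WT values, far from WT replicates 1 and 2. Its difference was 1.34 ± 1.18 (adjusted p = 0.58), and without WT replicate 3 it rose by 3.05 ± 0.43 (adjusted p = 0.00065), 8.29-fold. atpH read 12.17, 11.15 and 12.31 in rli, against 9.86, 10.33 and 13.60 in WT and rose without that array by 1.78 ± 0.29 (adjusted p = 0.0018). atpF read 10.71, 10.51 and 10.74 in rli, against 9.58, 9.46 and 11.88 in WT and rose without that array by 1.14 ± 0.16 (adjusted p = 0.00051). All 6 ATP synthase transcripts had a higher mean in rli with all arrays, the lowest by 0.064.

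In NDH, ndhA, ndhC, ndhD, ndhE, ndhF and ndhG encode membrane subunits, and ndhH, ndhI, ndhJ and ndhK subunits of the arm that reaches into the stroma. ndhF (ArthCp071) read 10.01, 8.69 and 10.26 on rli replicates 1 to 3, against 8.02, 7.84 and 11.23 on WT replicates 1 to 3. Its difference of 0.62 ± 0.79 (adjusted p = 0.73) was the highest of the complex, and without WT replicate 3 it rose by 1.72 ± 0.35 (adjusted p = 0.0067). ndhJ (ArthCp025) read 10.33, 9.86 and 10.67 on rli replicates 1 to 3, against 9.78, 9.40 and 12.28 on WT replicates 1 to 3, with the lowest difference, -0.20 ± 0.62 (adjusted p = 0.90), and 0.70 ± 0.22 (adjusted p = 0.056) without that array. Both membrane and stromal subunits were among the 7 that rose without WT replicate 3: ndhA by 1.42 ± 0.16, ndhE by 1.09 ± 0.25, ndhG by 1.71 ± 0.40, ndhH by 1.78 ± 0.38, ndhI by 1.14 ± 0.16 and ndhK by 1.19 ± 0.24, beside ndhF. ndhC and ndhD did not pass, at 0.24 ± 0.17 and 0.50 ± 0.19. The probe set of both ndhB copies, which is outside the counts, read 9.71, 8.29 and 9.98 in rli, against 6.52, 6.08 and 11.65 in WT. Its difference was 1.25 ± 1.21 (adjusted p = 0.63), and ndhB rose without WT replicate 3 by 3.03 ± 0.39 (adjusted p = 0.00034), more than any counted NDH transcript. ndhI held the closest rli values of the 44, 12.17, 12.26 and 12.36 in rli, against 11.28, 10.96 and 13.07 in WT.

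rbcL (ArthCp030), which encodes the large subunit of Rubisco, the enzyme that fixes carbon dioxide, read 10.68, 10.00 and 11.13 on rli replicates 1 to 3, against 8.76, 8.46 and 12.39 on WT replicates 1 to 3. The rli values lay between, the difference was 0.74 ± 0.85 (adjusted p = 0.70), and without WT replicate 3 rbcL rose by 2.00 ± 0.27 (adjusted p = 0.00044), 3.99-fold. ccsA (ArthCp073), which helps to attach haem to c-type cytochromes, read 12.59, 12.11 and 12.64 on rli replicates 1 to 3, against 12.11, 11.92 and 13.37 on WT replicates 1 to 3. Its difference was -0.021 ± 0.36 (adjusted p = 0.98), and it stood at 0.43 ± 0.19 (adjusted p = 0.15) without that array.

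The complexes were compared within each array, so that an offset shared by all plastid transcripts of an array cancels. For each array the median was taken over the transcripts of a complex, each centred on its own mean over the 6 arrays. Where an array was left out, each transcript was centred anew on its mean over the remaining arrays. These medians describe the list and carry no test. For NDH they were 0.14, -0.44 and 0.46 on rli replicates 1 to 3, against -0.94, -1.16 and 1.85 on WT replicates 1 to 3, the widest range of the complexes. For photosystem II they were 0.23, -0.25 and 0.41 in rli, against -0.77, -0.94 and 1.44 in WT. For cytochrome b6f they were -0.082, -0.50 and 0.44 in rli, against -0.50, -0.61 and 1.75 in WT. All complexes kept the same order of arrays at the ends, with WT replicate 2 lowest and WT replicate 3 highest. For the ATP synthase they were 0.16, -0.042 and 0.28 in rli, against -0.69, -0.76 and 1.01 in WT, and for photosystem I -0.094, -0.27 and 0.18 in rli, against -0.38, -0.46 and 0.88 in WT. The groups overlapped for every complex.

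The difference of the group means of these medians was 0.28 for the ATP synthase, 0.22 for photosystem II, 0.14 for NDH, -0.077 for photosystem I and -0.26 for cytochrome b6f. Each is smaller than the SD across the WT arrays, which was 1.01, 1.33, 1.68, 0.75 and 1.33 in the same order. With that array left out the differences were 0.85 for the ATP synthase, 1.04 for photosystem II, 1.09 for NDH, 0.36 for photosystem I and 0.47 for cytochrome b6f. Photosystem I and cytochrome b6f thus had the lowest values in both settings.

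**Figure D4:**
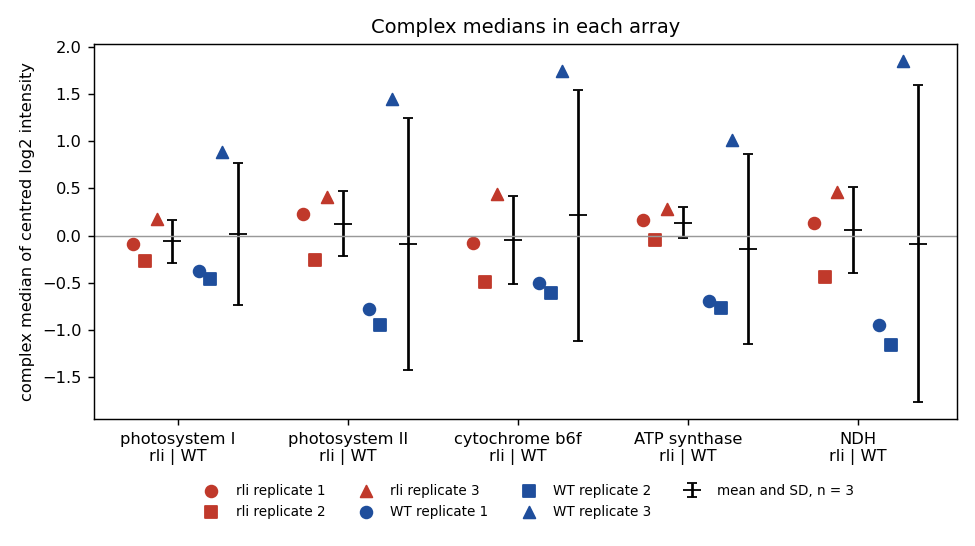
For each complex the y axis gives the median, over its transcripts, of the log2 intensity centred on the transcript's own mean, for the 3 rli arrays (red, left) and the 3 WT arrays (blue, right), with the group mean and SD as black bars (n = 3). The rli points lie between WT replicates 1 and 2 below and WT replicate 3 above in every complex, and the WT SD runs from 0.75 in photosystem I to 1.68 in NDH.

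Of the 10 pairs of complexes, 2 gave within-array differences that did not overlap between the groups, beside 28.1% of single probe sets, so that the share of pairs is not above that of the array as a whole. Photosystem II minus cytochrome b6f was 0.31, 0.24 and -0.029 on rli replicates 1 to 3, against -0.27, -0.34 and -0.30 on WT replicates 1 to 3. The WT values of this pair lay close together, WT replicate 3 included, with means of 0.17 ± 0.18 in rli and -0.30 ± 0.033 in WT (SD, n = 3 each). The difference of the means was 0.48, and 0.57 without WT replicate 3, while means over the transcripts in place of medians gave 0.20.

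Cytochrome b6f minus ATP synthase was -0.25, -0.45 and 0.15 on the rli arrays, against 0.19, 0.16 and 0.73 on the WT arrays. The nearest rli and WT values differed by little, and the difference of the means was -0.54. Without WT replicate 3, and centred anew on the remaining arrays, it was -0.38 and the groups overlapped. That overlap comes from the new centring, since leaving out an array cannot by itself make separate groups overlap. The median of cytochrome b6f rests on 6 transcripts, of which petD and petN rose without WT replicate 3 and petA, petB, petG and petL did not pass. In the other 8 pairs the groups overlapped. When WT replicate 3 was left out, with the same new centring, the groups did not overlap in 5 of the 10 pairs. This is close to the 46.5% of all tested probe sets, so the count says nothing particular about the complexes. The pairs share complexes and arrays and are not independent.

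With WT replicate 3 left out, transcripts that share a polycistronic unit gave unequal differences in several units. In the unit that carries atpI, atpH, atpF and atpA in this order, the difference without WT replicate 3 was smaller at each step, with 3.05 for atpI, 1.78 for atpH, 1.14 for atpF and 0.52 for atpA. In the psbB unit the values were 1.77 for psbB, 1.56 for psbT, 0.67 for psbH, 0.37 for petB and 3.17 for petD, so that neighbours gave the smallest and the largest value of the unit. In the unit of psbD, psbC and psbZ they were 2.07, 1.02 and 1.12. psaA and psaB, at 1.55 and 0.35, differed likewise. Differences between neighbours were not tested.

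The unit of ndhC, ndhK and ndhJ was uneven too, at 0.24, 1.19 and 0.70. Values lay closer together in other units. psbE, psbF, psbL and psbJ stood at 0.76, 0.57, 0.45 and 0.51 without WT replicate 3, and atpB and atpE at 0.24 and 0.38. The unit of petL, petG and psaJ was low throughout, at 0.25, 0.36 and -0.059, and had negative differences for all 3 with all arrays, -0.32, -0.59 and -0.37. The long unit of ndhH, ndhA, ndhI, ndhG, ndhE, psaC and ndhD holds a photosystem I gene among NDH genes. Its values were 1.78, 1.42, 1.14, 1.71, 1.09, 1.90 and 0.50, so that psaC gave the highest value of the unit and ndhD, next to it, the lowest.

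**Figure D5:**
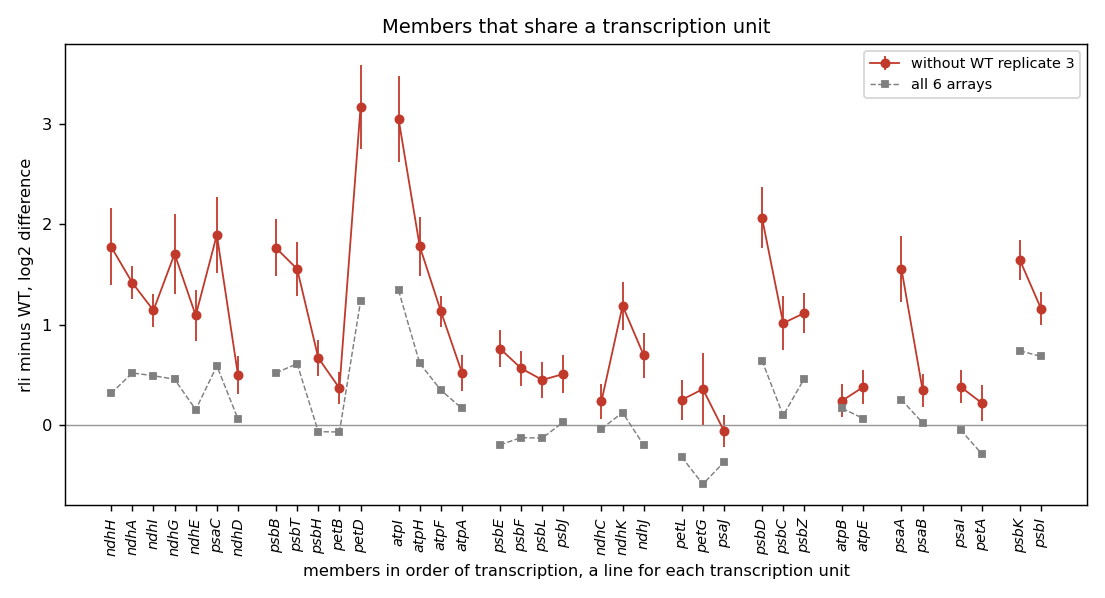
The x axis lists the members of each transcription unit in order of transcription, a line for each unit, and the y axis gives the log2 difference rli minus WT without WT replicate 3 (red, with limma standard errors) and with all 6 arrays (grey). The red values are 3.05 at atpI and 0.52 at atpA, the ends of 1 unit, and 0.37 at petB and 3.17 at its neighbour petD.

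Transcripts that were bright in rli spanned a narrower range in WT. Across the 44, Pearson's r between the mean log2 intensity of the rli arrays and the span of the WT arrays was -0.76. This is a description over transcripts that share the same arrays and, in part, their transcription units. Of the 44, 20, 16 and 23 lay above the 99th percentile of all tested probe sets on rli replicates 1 to 3, against 11, 11 and 35 on WT replicates 1 to 3. The part of signal compression at the bright end was not tested.

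The other plastid-encoded transcripts serve mainly transcription and translation in the plastid. Of 25, 0 changed with all arrays and 14 rose without WT replicate 3 (8.72% of all tested probe sets rose), with medians of 0.027 and 0.75, against 0.17 and 1.05 for the 44. Without WT replicate 3 their differences ran from -0.19 for rps4 to 5.07 for rps14, against -0.059 to 3.17 for the 44. The smallest p with all arrays was that of rps19, at 0.73 ± 0.26 (adjusted p = 0.14), followed by rps4 at -0.48 ± 0.28 (adjusted p = 0.36). With array weights rps19 passed, at 0.57 (limma adjusted p = 0.035). Of 18 mitochondrion-encoded probe sets, identified by symbol, 9 were tested, of which 0 changed with all arrays and 6 rose without WT replicate 3, with medians of 0.97 and 1.89. The filter was set on the mean of all 6 arrays, at 4.63. Among the rises, both nad1 probe sets, nad5, nad6 and nad9 lay below that line on WT replicates 1 and 2. They were tested only through the rli arrays and WT replicate 3, so this share and these medians favour rises. The nad4 transcript stood at 0.87 ± 0.31 (adjusted p = 0.14) and 1 of the 2 nad1 probe sets at 1.85 ± 0.88 (adjusted p = 0.27), or 1.20 ± 0.22 and 3.02 ± 0.47 without that array. Both also passed with all arrays when array weights were used, nad4 at 1.15 and nad1 at 3.11 (limma adjusted p = 0.00098 and 0.00016).

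Nuclear genes for subunits of the same complexes mostly had lower means in rli. Of 52 loci listed, 9 had a probe set that the annotation used here names for that gene alone. The other loci may have probe sets that it leaves unnamed or gives to several genes. All 9 were tested, with a lower mean in rli for 8 and a median difference of -0.63. Over all tested probe sets, 53.3% had a higher mean in rli. Of the 9, the NDH gene NDHS had a higher mean in rli, by 0.46 ± 0.17 (limma adjusted p = 0.15). It read 9.57, 9.55 and 9.49 in rli, against 9.03, 9.11 and 9.08 in WT, with all rli values above WT. PSAN, a lumenal subunit of photosystem I, read 10.30, 10.29 and 10.01 in rli, against 11.55, 11.32 and 12.36 in WT. All its rli values lay below WT, and it fell by 1.54 ± 0.27 (adjusted p = 0.0090), the 1 change among the 9, beside 2.53% of all tested probe sets that fell. The call was lost without rli replicate 3 (limma adjusted p = 0.054) and with hybridisation control scaling (0.064). When WT replicate 3 was left out, 3 of the 9 fell, beside 6.56% of all tested probe sets, namely PSAN, the photosystem II gene PSBY at -0.66 ± 0.22 with all arrays and -0.84 ± 0.17 without that array, and the NDH gene NDHL at -0.86 ± 0.29 and -0.94 ± 0.28. The plastid and nuclear values come from the same arrays, and no test was made of one list against the other.

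Of 20 genes for plastid RNA processing and decay, 4 were tested and 0 changed with all arrays or without WT replicate 3. The RNA editing factors OTP84 and CRR21 stood at -0.45 ± 0.34 and -0.43 ± 0.35. CRR28 and LPA66 went the other way, at 0.34 ± 0.47 and 0.25 ± 0.44. Of 12 genes for plastid transcription 0 were tested. Among markers of the organs in a whole plant, 2 of 5 green tissue genes were tested, PSAN and RCA (-0.39 ± 0.20), 1 of 9 root genes, PYK10 (0.21 ± 0.19), and 0 of 3 flower genes. RCA read 11.99, 12.44 and 12.07 in rli, against 12.61, 12.62 and 12.45 in WT, and PYK10 read 10.22, 10.07 and 10.29 in rli, against 10.15, 10.07 and 9.74 in WT. Within WT both had their lowest value on replicate 3, whereas PSAN had its highest there.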

How the data were processed

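The submitters' processing notes name MAS5 and GCOS for the deposited intensity values, 1 per probe set on a linear scale (versions and genome build not given in the sources used here). The authors' deposited intensity values have the same mean on every array once the lowest and highest 2% are left out (100.0), so they were taken to log2 without further scaling. The number of arrays limits the precision, and no detection calls were used.

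Of 22810 probe sets, the platform's gene table listed 13513 with 1 gene, 503 with several and left 8794 unnamed. Entrez numbers matched 13436 of them to the reference gene table (TAIR10.1), used for names only. Sequences and coordinates are not given here. After removal of 64 control probe sets, the 13648 probe sets with a mean log2 value at or above the 40th percentile (4.63) were tested with limma 3.58.1 in R 4.3.3 (lmFit, eBayes with an intensity trend, two-sided, Benjamini-Hochberg) on genotype alone. On simulated data for rli against WT with 200 of 13648 changed, 0% were recovered at a log2 difference of 1, 74.5% at 2 and 91% at 3. These shares are over the simulated probe sets as a whole. The plastid transcripts described here had a median WT span of 2.63, against 0.63 over all tested probe sets. Recovery is not given for transcripts of that spread, so the shares cannot be carried over to them. Complex medians and lists are descriptions. Named transcripts are those with the highest and lowest difference in each complex, any past the threshold, and core subunits (psaA, psaB, psaC, psbA, psbD, petB, petD, atpB, atpE, ndhF, ndhB, rbcL, ccsA), and in each comparison list up to 4 past the threshold or else the 2 of smallest p. The other members named, the relation of brightness to span, the order of arrays and the reporting without WT replicate 3 were chosen after values were seen. Members and lists were chosen with earlier results of these data known. Alternatives were quantile normalization, median centring, a floor, an added constant, 3 other filters, variance settings, array weights, a replicate block, each array left out, and hybridisation control scaling. Figures used matplotlib 3.10.9 in Python 3.11.15.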

Additional observations from a re-analysis of the deposited data

How the results depend on the processing

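The number of changed transcripts among the 44 was 0 with all arrays. It was 24 with array weights, ran from 0 to 26 with each array left out (26 without WT replicate 3 and 0 without any other array), and was 16 with hybridisation control scaling without WT replicate 3. It was 0 in the 12 other alternatives that kept all 6 arrays. Why WT replicate 3 stands apart was not tested. With the replicate number as a block, 0 of the 44 changed, while the mitochondrial nad1 and nad4 passed (limma adjusted p = 0.020 and 0.034). Under numbers 1, 2 and 3, the rli and WT deviations from the group means correlated at -0.093, 0.33 and 0.32, so the numbers were not taken to pair the samples. Over all probe sets, 928 changed, between 222 and 3181 in the alternatives, with 1300 under the block. The median difference over the 44, 0.17, ran from -0.16 to 1.05 with each array left out. Complex medians ran likewise from -0.016 to 0.85 for the ATP synthase, -0.37 to 1.09 for NDH, -0.72 to 0.47 for cytochrome b6f, -0.30 to 0.36 for photosystem I and -0.23 to 1.04 for photosystem II. Photosystem II minus cytochrome b6f, 0.48, ran from 0.34 to 0.58 and was 0.20 with means over transcripts. Cytochrome b6f minus NDH, -0.40, ran from -0.62 to -0.28 and was -0.13 with means.

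Only the transcripts named by rule were followed through every alternative, so the list of turned signs is not complete for the 44. Of the other members, 7 turned from negative to positive with array weights. They were petA at 0.24, petL at 0.26, psaI at 0.33, psbF at 0.56, psbH at 0.56, psbL at 0.47 and ndhC at 0.29. With hybridisation control scaling psbJ turned to -0.038 and ndhD to -0.0067. Among those named by rule the signs turned as follows, none of them past the threshold with all arrays. After quantile normalization ccsA stood at 0.19, ndhJ at 0.094, petB at 0.18 and psbE at 0.13, and after median centring atpE at -0.010 and psaB at -0.053. With array weights ccsA stood at 0.44, ndhJ at 0.66, petB at 0.33, petG at 0.51, psbA at 0.26 and psbE at 0.72. With hybridisation control scaling atpE stood at -0.0038 and psaB at -0.047, and without WT replicate 3 as well, atpB at -0.21, atpE at -0.072, ndhJ at 0.24, psaB at -0.10, psbE at 0.31 and PYK10 at -0.37. With each array left out, atpE ran from -0.16 to 0.38, ccsA from -0.29 to 0.43, ndhJ from -0.74 to 0.70, petB from -0.32 to 0.37, petG from -1.09 to 0.36, psaA from -0.64 to 1.55, psaB from -0.20 to 0.35, psaC from -0.24 to 1.90, psbA from -0.44 to 0.31, psbD from -0.17 to 2.07 and psbE from -0.71 to 0.76. PSAN lost its call without rli replicate 3 (limma adjusted p = 0.054) and with hybridisation control scaling (0.064). Each transcript has 1 probe set and all 44 were tested, so the alternatives on probe sets per locus and on members used changed nothing by construction, and they have no values of their own. Including the probe set of both ndhB copies left the count with all arrays at 0.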
